A study of Rattus norvegicus with 10 samples.

Results

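The cytosolic ribosomal protein genes were taken as the rows whose symbol is Rpl or Rps with a number, with an a, x or l form where the symbol has one, together with Rplp0, Rplp1, Rplp2 and Rpsa. The rule found 79 of the 22081 genes in the table. By symbol, 38 were of the large subunit, 25 of the small subunit including Rpsa and 3 of the acidic stalk. A further 6 were paralogs, here labelled tissue paralogs, and 7 were other like-named loci. Of the 66 large subunit, small subunit and stalk rows, 5 had 1 exon, and whether these are the genes or copies of them was not tested. The ribosomal S6 kinases share the letters but are not ribosomal proteins and were not members. Intracranial arteries of wild-type female Sprague-Dawley rats were sequenced as bulk RNA, 5 dissected aneurysms and 5 samples of the remaining circle of Willis, which the labels name control, all numbered 4 to 8. All animals, in both groups, were operated on at 10 weeks of age and sampled on day 63. Each had both ovaries removed, had the left carotid, right external carotid and right pterygopalatine arteries tied, was made hypertensive by a high-salt diet and a tied left renal artery, and was fed 3-aminopropionitrile, an inhibitor of lysyl oxidase. The controls were thus arteries of the same operated animals and not of healthy ones, and no source used here says that a shared number names a shared animal or culture, so the p-values below measure only the spread between these samples.

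Ribosomal proteins and ribosomal RNA together form the particle that translates messenger RNA, and the proteins are needed in roughly equal amounts. Most of their messages begin with a cytosine followed by an unbroken stretch of pyrimidines, the 5′ terminal oligopyrimidine (TOP) motif, through which the mTOR pathway and the RNA-binding protein Larp1 control their translation. Because these messages are abundant, short and present in every nucleated cell, they are a common part of any poly(A) library.

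The start sites of the members show the TOP motif in part. RefSeq (build GRCr8) held a start region for 58 of the 79 members. For 5 of them (Rps19, Rpl37, Rpl38, Rpl35a and Rpl5l1) it lay on another chromosome than the deposited table gives. The other 53 lay on the same chromosome. Of the 48 large subunit, small subunit and stalk genes among these, 20 (41.7%) had C at the annotated first base followed by at least 4 more C or T, against 881 of all 33469 start regions (2.63%). When the run could start anywhere within 10 bases of the annotated start, 35 of 48 (72.9%) had one, against 28.9% of all start regions. The following 40-base windows, 20 bases before and 20 from the annotated start, are shown for some of the members whose levels or fold changes are described below; capitals mark the unbroken run of C and T that begins with C at the first transcribed base.
Rplp1 (chr8:71290853-71290892, minus strand): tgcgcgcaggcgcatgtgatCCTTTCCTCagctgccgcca
Rpl35 (chr3:43165902-43165941, minus strand): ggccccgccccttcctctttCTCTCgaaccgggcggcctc
Rps27 (chr2:177964587-177964626, minus strand): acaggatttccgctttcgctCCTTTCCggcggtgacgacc
Rpl37a (chr9:81748071-81748110, plus strand): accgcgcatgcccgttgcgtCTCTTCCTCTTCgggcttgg
Rplp0 (chr12:46718371-46718410, minus strand): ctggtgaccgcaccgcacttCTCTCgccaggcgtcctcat
Rpl10 (chrX:157205830-157205869, plus strand): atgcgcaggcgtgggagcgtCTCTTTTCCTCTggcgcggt
Rpl34 (chr2:221962264-221962303, minus strand): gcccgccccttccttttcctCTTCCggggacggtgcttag
In the next windows the run was short or did not start with C at the annotated first base.
Rpl41 (chr7:1563478-1563517, minus strand): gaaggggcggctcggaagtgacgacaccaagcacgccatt
Rpsa (chr8:128728859-128728898, plus strand): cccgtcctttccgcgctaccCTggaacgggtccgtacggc
Rpl13 (chr19:68062494-68062533, plus strand): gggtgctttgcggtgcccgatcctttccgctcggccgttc
Rps21 (chr3:187724018-187724057, plus strand): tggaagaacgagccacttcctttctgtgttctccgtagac
Rpl18 (chr1:105325250-105325289, plus strand): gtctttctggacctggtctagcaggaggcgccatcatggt
Of these only Rpsa had C at the annotated first base, in a run of 2. The motif CCGGAAG, the core bound by ETS factors, was present on either strand in 14 of the 48 300-base start regions (29.2%) and in 8.75% of all, GGGCGG, a GC-box core, in 26 (54.2%) and 33.1%, and TATAAA in 4 (8.33%) and 14.2%. These letters are a description of the windows and not of factor binding.

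The libraries differed strongly in complexity. Total gene reads ranged from 4513515 to 7352626 in the aneurysms and from 3017269 to 5692715 in the controls. The 13 genes of the mitochondrial genome took 19.4 to 50.3% of these reads in aneurysms and 37.9 to 59.0% in controls, and the locus AABR07000398.1 took a further 17.1 to 37.5%. Only 743 genes had at least 10 exon reads in aneurysm 8, against 2664 to 4225 in the controls and 3190 to 7590 in the other aneurysms. Smooth muscle markers summed to 20.1 to 659.9 CPM (reads scaled to a common library size) of exon reads in aneurysms and 241 to 978 CPM in controls. Endothelial markers summed to 0 to 72.1 CPM in aneurysms, with no read in aneurysms 7 and 8, and 13.7 to 183 CPM in controls. CPM here were scaled by the trimmed mean of M values (TMM).

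Ribosomal protein genes took a larger share of exon reads in aneurysms 4 to 7 than in any control, and a smaller share in aneurysm 8 than in any control. Exon reads on the 79 members made up 1.25, 4.69, 3.46, 1.79 and 0.125% in aneurysms 4 to 8 and 1.16, 0.571, 0.760, 0.953 and 0.388% in controls 4 to 8. The aneurysm mean was 2.26 ± 1.81% (SD, n = 5) and the control mean 0.766 ± 0.304% (SD, n = 5). Aneurysms 4 to 7 exceeded every control, aneurysm 4 only narrowly, and aneurysm 8 was the lowest of all samples, so the groups overlapped. Without the reads of the mitochondrial genome and AABR07000398.1 the member share was 5.24, 6.82, 6.41, 5.99 and 2.05% in aneurysms 4 to 8 and 4.22, 3.13, 3.55, 5.12 and 3.37% in controls 4 to 8. The aneurysm mean was then 5.30 ± 1.91% and the control mean 3.88 ± 0.804% (SD, n = 5 each), with aneurysms 4 to 7 again above every control and aneurysm 8 below every control. Of total gene reads, which add introns, the members took 0.648, 3.06, 2.08, 0.961 and 0.0712% in aneurysms 4 to 8 and 0.627, 0.354, 0.510, 0.585 and 0.267% in controls 4 to 8. Without the same rows that share was 1.55, 4.92, 3.96, 2.77 and 0.584% in aneurysms 4 to 8 and 1.49, 1.04, 1.59, 1.71 and 1.15% in controls 4 to 8, and aneurysm 4 was then below controls 6 and 7.

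**Figure D1:**
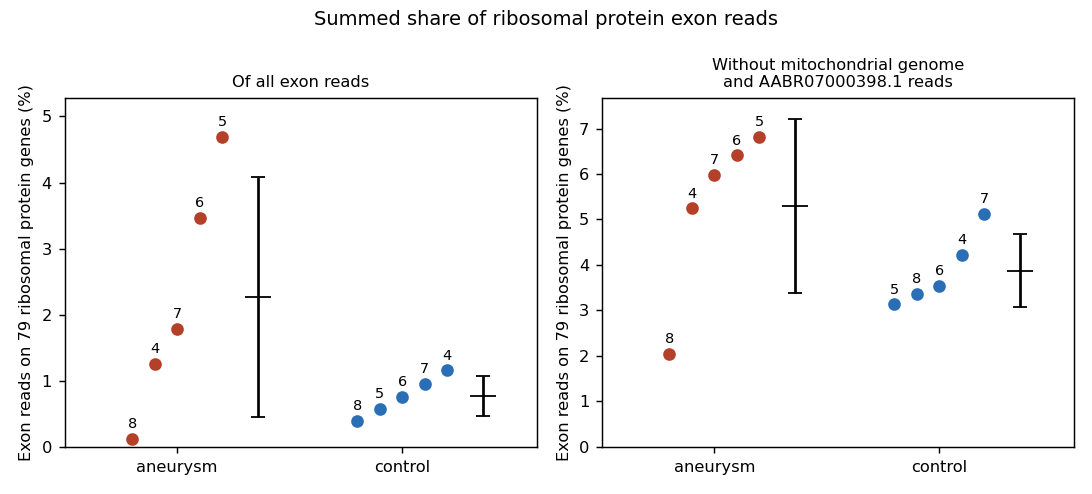
Exon reads on the 79 ribosomal protein genes as a percentage of all exon reads (left) and of exon reads without the mitochondrial genome and AABR07000398.1 (right); each point is 1 sample with its number, the horizontal bar is the group mean and the whiskers are 1 SD (n = 5). Aneurysms 4 to 7 lie above the 5 controls in both panels and aneurysm 8 lies lowest in both.

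The reads on these genes were almost wholly exonic. Of the gene reads on members, 3.18, 1.33, 1.05, 1.78 and 4.01% in aneurysms 4 to 8 and 2.39, 3.70, 2.86, 1.42 and 2.31% in controls 4 to 8 lay in introns. Other genes in this paragraph are all genes but the members, the mitochondrial genome and AABR07000398.1. Together they had 30.2 to 73.0% of their gene reads in introns in the aneurysms and 57.4 to 68.7% in the controls. Their intron share was higher than that of the members in 10 of 10 samples. Reads that cross an exon junction were 21.1 to 42.4% of member exon reads in aneurysms and 34.3 to 49.8% in controls, against 11.01 to 22.3% for other genes over all 10 samples. The intron share of the other genes was lowest in aneurysms 5 and 6 (30.2 and 40.4%), the libraries in which member shares were highest. Unlike other genes, the members often shared reads with related sequences. Their uniquely mapped share of exon reads was 58.8 to 85.1% in aneurysms and 62.8 to 70.6% in controls. In other genes it was 71.3 to 91.5% and 91.4 to 93.8%. Of the 64 members tested below, 27 had a unique share under 50% over all samples, and, among others, Rpl6, Rplp2 and Rps20, with 2126 to 5832 exon reads each, had no unique exon read. How the authors' counting divided such reads between related sequences is not known here, so the values of these rows are uncertain.

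**Figure D2:**
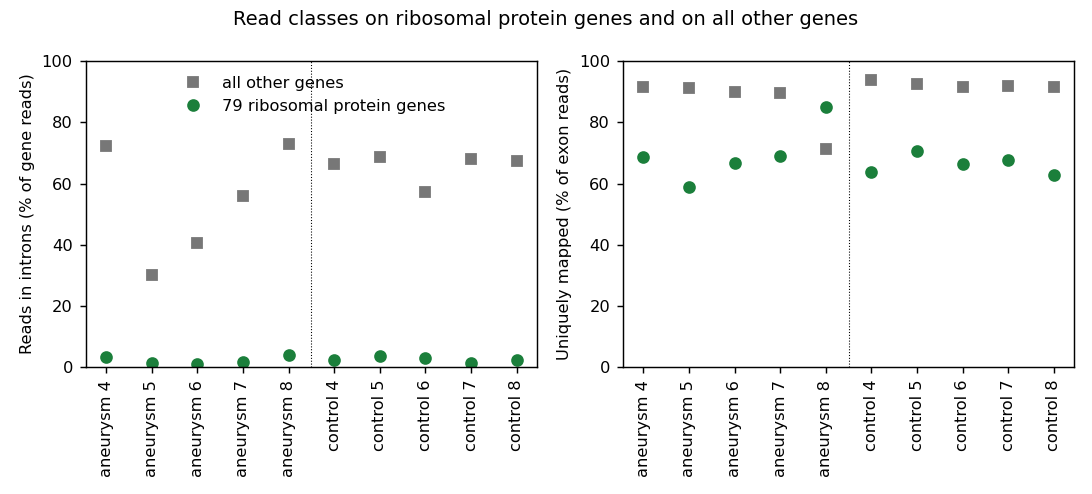
Percentage of gene reads in introns (left) and percentage of exon reads that mapped uniquely (right), for the 79 ribosomal protein genes (circles) and all other genes (squares) in each sample. The other genes leave out the mitochondrial genome and AABR07000398.1. Member intron shares stay between 1.05 and 4.01% while other genes reach 73.0%, and member unique shares lie below those of other genes in every sample but aneurysm 8.

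No member passed the test between aneurysm and control. In the edgeR quasi-likelihood fit of total gene reads, 64 members were among the 7615 genes tested and 0 had an adjusted p under 0.05 (Benjamini-Hochberg over all genes tested). The background was 12 of 7615 genes (0.158%), of which 9 were higher (0.118%) and 3 lower in aneurysm (0.0394%). Without adjustment 11 members (17.2%) had p under 0.05, all with a positive fold change, where 251 genes (3.3%) did so in that direction among all genes tested, and 2.43% in the other. DESeq2 and limma-voom also called 0 of the 64, with 14 and 15 members at an unadjusted p under 0.05. The shares of all genes at that p with DESeq2 and limma-voom are not given here, nor are they for exon reads below. Fitted log2 fold changes of aneurysm over control were nonetheless positive for 63 of 64 members, where 54.2% of all genes tested were positive. All fold changes given here are log2 values of aneurysm over control with the standard error of the fit. The member median was 1.38, and the median over all genes tested was 0.13. The members were not independent of each other, since they shared the same 10 libraries. A fold above 1.5 was fitted for 59 members (92.2%) and a fold below the inverse of 1.5 for 1, against 35.8% and 28.6% of all genes tested.

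Exon reads alone gave smaller values. Of 2969 genes tested, 16 were called (0.539%), 12 of them higher (0.404%) and 4 lower (0.135%), and 0 of 63 members were among them. At an unadjusted p under 0.05 stood 2 members, Rps21 and Rpl10, with edgeR (3.17%, beside 2.56% of all genes higher and 1.75% lower), 3 with DESeq2 and 4 with limma-voom. The fold change was positive for 55 of 63 members, where 49.2% of all genes tested were positive, and the median was 0.68 beside -0.03 over all genes. Each of the 63 members tested in both fits had a lower fold change in exon reads than in gene reads, by a median of 0.65 on the log2 scale. A fold above 1.5 was fitted for 34 members (54.0%) and below its inverse for 2, against 32.5% and 34.6% of all genes. The member counts themselves were nearly the same in both fits, which were scaled separately, so the fits are not independent measurements of the members. Rpl41 had no intron read, and its fold change was 1.09 on gene reads and 0.57 on exon reads. Introns of other genes enter only the gene reads, and the part of the intron share in this gap was not tested. The spread between samples was large, with a biological coefficient of variation of 1.38 for gene reads and 1.69 for exon reads. On counts simulated at a dispersion estimated without the group term, the gene read test recovered 26.5% of genes with a 16-fold change among 6772 tested. It recovered 0% of those with a 4-fold change. That dispersion counts differences between the groups as spread, so these shares do not say what the reported fits could detect. What could be detected at the spread within the groups was not simulated.

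**Figure D3:**
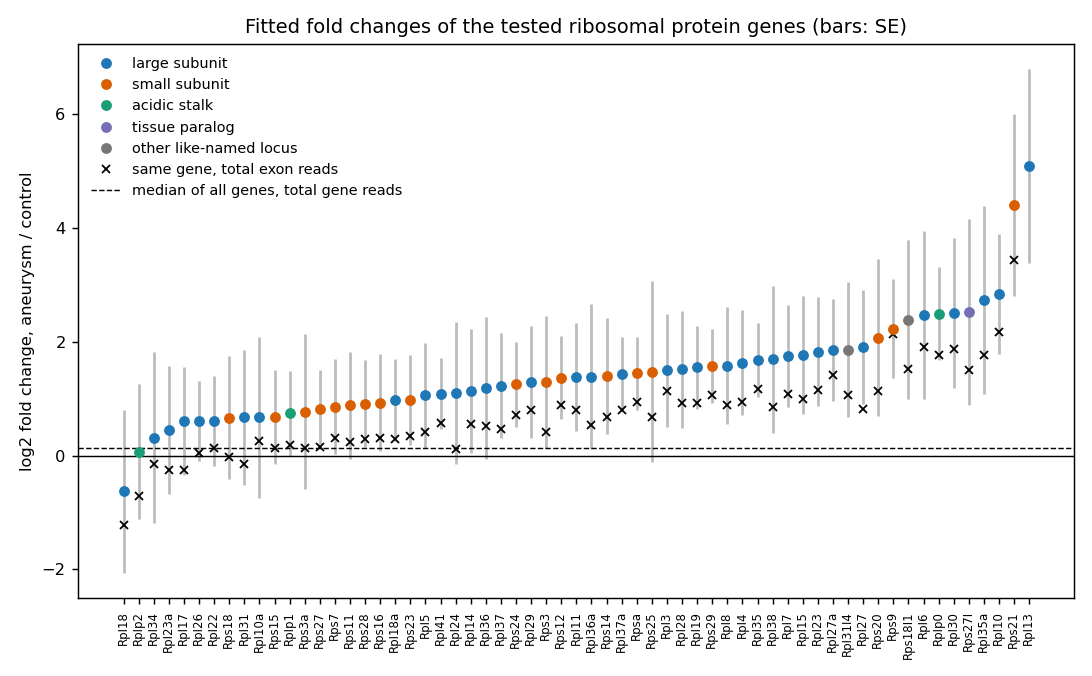
Fitted log2 fold change of aneurysm over control for 61 of the 64 ribosomal protein genes tested on total gene reads (coloured points by class, bars 1 SE), with the same gene on total exon reads as a cross. Rpl18 is the 1 member below 0 on gene reads, all 60 crosses lie below their points, and the dashed line is the median of all genes tested (0.13).

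Seen by sample, aneurysm 5, 6 or 7 held the highest gene read level of 61 of the 64 tested members. On total gene reads, aneurysm 5 lay above every control for 60 of the 64 tested members, aneurysm 6 for 49, aneurysm 7 for 37, aneurysm 4 for 11 and aneurysm 8 for 5. Aneurysm 8 lay below every control for 29 members and aneurysm 4 for 6. The shares of all genes tested for these single-sample counts are not given here, so the counts are not read as particular to the members. The median member level was 5.31, 8.03, 7.72, 6.56 and 0.60 log2 CPM in aneurysms 4 to 8, and 5.46, 5.11, 6.07, 6.06 and 4.69 log2 CPM in controls 4 to 8. Aneurysm 5 held the highest value of 43 of the 64 members and of 10.3% of all genes tested. Aneurysm 8 held the lowest or a tied lowest value of 40 of the 64 members, a larger share than the 40.03% of all genes tested. At least 3 aneurysms exceeded every control for 35 of 64 members (54.7%), where 12.9% of all genes did, and at least 4 for 9 members (14.1%) and 3.73% of all genes. The reverse, at least 3 aneurysms below every control, held for 1 member and 17% of all genes, and every aneurysm below every control for 0 members and 1.54%. On exon reads at least 3 aneurysms exceeded every control for 19 of 63 members (30.2%) and 11.5% of all genes, and at least 4 for 6 members (9.52%) and 3.54%. At least 3 were below every control for 2 members (3.17%) and 14.3%, and no member had groups that did not overlap, beside 0.337% of all genes with every aneurysm above and 1.35% with every aneurysm below. Without aneurysm 5 the median fold change fell from 1.38 to 0.97 on gene reads, with 56 of 65 members positive, and from 0.68 to 0.32 on exon reads, with 40 of 63 positive, still with 0 members called. Without aneurysm 8 the medians were 1.61 and 0.89, 65 of 67 and 61 of 65 members were positive, and 32 and 5 members reached an unadjusted p under 0.05, again with 0 called. The matching shares of all genes in these refits are not given here, so these counts stand without a background.

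**Figure D4:**
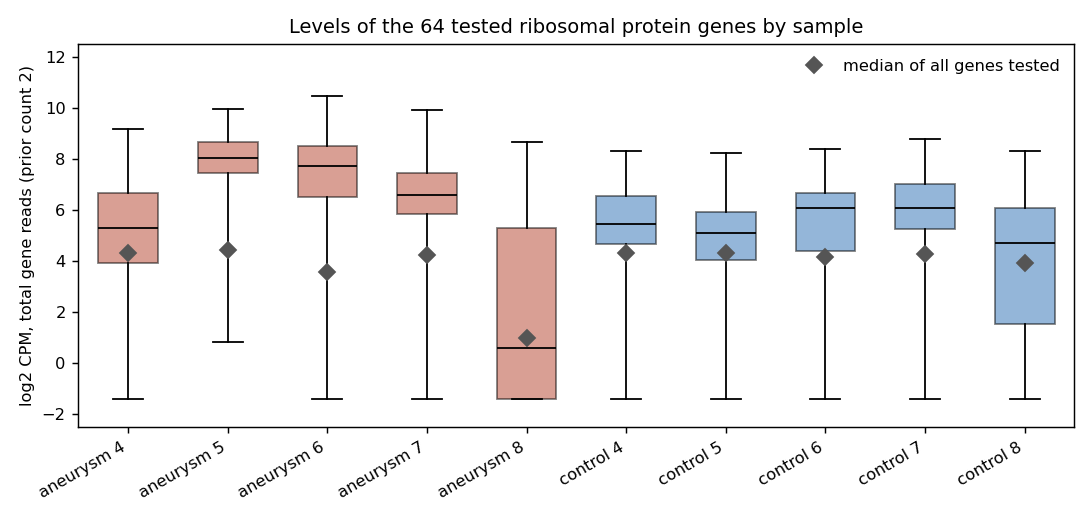
Level of each of the 64 tested ribosomal protein genes in log2 CPM of total gene reads, by sample; boxes span the quartiles, the line is the median, whiskers reach the lowest and highest member, and diamonds are the median of all 7615 genes tested. Member medians in aneurysms 5 to 7 (6.56 to 8.03) exceed the control medians (4.69 to 6.07), and in aneurysm 8 the member median (0.60) lies below that of all genes (0.97).

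Markers of other cell types moved across the same samples. The 5 fibroblast markers in the table summed to 5858 to 21916 CPM of exon reads in aneurysms 5, 6 and 7, 377 CPM in aneurysm 4, 286 CPM in aneurysm 8, and 96.2 to 448 CPM in the controls. Of the 4 fibroblast markers tested, Col1a1 and Col3a1, fibrillar collagens, were called higher in aneurysm in both fits. On gene reads 3 of the 4 had a positive fold change and 1 a negative one, and on exon reads all 4 were positive. Macrophage markers summed to 413, 6237, 7536, 1859 and 21.4 CPM in aneurysms 4 to 8 and to 62.1 to 287 CPM in the controls. None of the 12 was at 0 exon reads in all samples. Of the 10 tested on gene reads, 2 (Lyz2 and Gpnmb) were called higher. Of the same 10, 8 had a positive fold change and 2 a negative one, and on exon reads all 7 tested were positive. Neuron markers summed to 0 to 14.8 CPM in aneurysms and to 43.4 to 856 CPM in controls, with 0 of 6 called on gene reads and 5 of 6 lower at an unadjusted p under 0.05 in edgeR. The part of cell composition in the member values was not tested, and in bulk tissue more cells of a type cannot be told apart from more ribosomal protein message per cell.

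Rpsa is the member whose groups did not overlap on gene reads after TMM scaling. It encodes ribosomal protein SA of the small subunit, which is also known as a laminin-binding protein, and its row (Rnor6, chr8:128806128-128809986) had 7 exons and only uniquely mapped exon reads. Rpsa stood at 228, 404, 370.2, 368 and 165 CPM of gene reads in aneurysms 4 to 8, and 115, 105, 136, 155 and 53.0 CPM in controls 4 to 8. The lowest aneurysm, number 8, was above the highest control, number 7. The fitted log2 fold change was 1.44 ± 0.64 (SE, adjusted p = 0.766) in edgeR, and 0.499% of all genes tested had every aneurysm above every control. On exon reads Rpsa was at 586, 445, 392, 561 and 279 CPM of exon reads in aneurysms 4 to 8, and 241, 254, 236, 342 and 104 CPM in controls 4 to 8, where aneurysm 8 fell among the controls and the fold change was 0.94 ± 0.92 (SE, adjusted p = 0.999965).

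The acidic stalk proteins, which form the flexible arm that recruits elongation factors, gave the lowest adjusted p and 1 of the lowest fold changes. Rplp0 forms the base of the stalk and its row lies at chr12:46791527-46794797. Rplp0 stood at 74.0, 531, 749, 235 and 49.8 CPM of gene reads in aneurysms 4 to 8, and 56.8, 16.3, 87.5, 112 and 18.3 CPM in controls 4 to 8. Aneurysms 5, 6 and 7 exceeded every control and aneurysms 4 and 8 lay within the control range. The log2 fold change of 2.49 ± 0.81 (SE, adjusted p = 0.418) had the lowest adjusted p of all members in edgeR, and on exon reads it was 1.76 ± 0.97 (SE, adjusted p = 0.999965). Rplp1, which binds the base together with Rplp2, stood at 421, 831, 760.2, 353 and 6.33 CPM of gene reads in aneurysms 4 to 8, and 263, 236, 253, 403 and 259 CPM in controls 4 to 8. Aneurysms 4, 5 and 6 exceeded every control and aneurysm 8 was far below all other samples, and the fold change was 0.75 ± 0.75 (SE, adjusted p = 0.9989). Rplp2 stood at 5.75, 94.3, 4.69, 66.4 and 0.791 CPM of gene reads in aneurysms 4 to 8, and 39.8, 27.7, 27.1, 58.4 and 11.1 CPM in controls 4 to 8, with aneurysms 5 and 7 above and aneurysms 4, 6 and 8 below every control. The Rplp2 fold change was 0.069 ± 1.19 (SE, adjusted p = 0.9989) on gene reads and -0.70 ± 1.49 (SE, adjusted p = 0.999965) on exon reads. Of the 2126 exon reads of Rplp2, 0 mapped uniquely, against 99.99% for Rplp0 and 39.96% for Rplp1.

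Per length, the 10 highest members included Rpl41, Rps29, Rplp1, Rpl35, Rpl37, Rps28, Rps23, Rps27 and Rpl37a, in this order, and ranged from 1987 to 505 CPM of exon reads per kb of exon, as means over the 10 samples. Most of them encode small proteins from short messages. Rpl41, the smallest ribosomal protein, lies at chr7:2972899-2973977. Rpl41 stood at 569, 802, 1115, 974 and 146 CPM of gene reads in aneurysms 4 to 8, and 318, 298, 333, 434 and 315 CPM in controls 4 to 8. Aneurysms 4 to 7 were above every control and aneurysm 8 below them, and the fold change was 1.09 ± 0.62 (SE, adjusted p = 0.942). It was the first member by exon reads in 7 of 10 libraries, the exceptions being aneurysm 5 (Rps29), aneurysm 6 (Rpl37a) and aneurysm 8 (Rpl10). Rps29, a zinc-binding protein of the small subunit head at chr6:91455332-91456696, stood at 426, 989, 606, 618 and 98.9 CPM of gene reads in aneurysms 4 to 8, and 176, 135, 212, 186 and 212 CPM in controls 4 to 8. Again aneurysms 4 to 7 exceeded every control and aneurysm 8 was lowest, with a fold change of 1.57 ± 0.65 (SE, adjusted p = 0.703). Rpl35, which sits near the exit of the nascent peptide tunnel, stood at 339.9, 759, 738, 401 and 280.1 CPM of gene reads in aneurysms 4 to 8, and 141, 59.6, 160.0, 131 and 297 CPM in controls 4 to 8. Aneurysm 8 was inside the control range here, next to control 8, and the fold change was 1.68 ± 0.65 (SE, adjusted p = 0.598). Rpl37a, a zinc-binding protein of the large subunit, stood at 308, 793, 1399, 373 and 207 CPM of gene reads in aneurysms 4 to 8, and 299.8, 161, 204, 173 and 299 CPM in controls 4 to 8. Aneurysms 4 to 7 were above every control, although aneurysm 4 only narrowly, and the fold change was 1.44 ± 0.65 (SE, adjusted p = 0.790).

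The other 5 of these named members had fold changes of 0.75 to 1.23 on gene reads and none had an unadjusted p under 0.05. Rps23, a protein of the decoding centre, stood at 156, 728, 685, 141 and 11.1 CPM of gene reads in aneurysms 4 to 8, and 73.2, 64.5, 285, 192 and 259.5 CPM in controls 4 to 8. Only aneurysms 5 and 6 exceeded the controls, and controls 6, 7 and 8 were themselves higher than aneurysms 4, 7 and 8. Rpl37, whose row has 1 exon and lies on chromosome 10 where RefSeq places the gene on chromosome 2, stood at 53.5, 652, 399, 306 and 0 CPM of gene reads in aneurysms 4 to 8, and 117, 112, 109, 197 and 65.9 CPM in controls 4 to 8, so that aneurysm 8 had no read. Rps27 and Rps28, small subunit proteins with unique shares of 98.6% and 97.9%, had fold changes of 0.82 ± 0.69 (SE, adjusted p = 0.9989) and 0.91 ± 0.76 (SE, adjusted p = 0.9989). In both the controls spanned a wide range, with control 4 highest.

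Of the members with the highest fold changes, Rpl13 and Rps21 had few reads in the controls. Rpl13, a large subunit protein, had exon reads of 0, 5894, 1208, 0 and 1 in aneurysms 4 to 8, and 0, 0, 0, 0 and 2 in controls 4 to 8. Its reads were thus almost wholly from aneurysms 5 and 6, and 4.57% of them were unique. The gene read fold change was 5.08 ± 1.70 (SE, adjusted p = 0.466), and the exon filter left Rpl13 out. Without a filter on low counts Rpl13 was called in edgeR, with adjusted p = 0.00233 on gene reads and 0.00891 on exon reads. Rps21, a small subunit protein, had exon reads of 1, 849, 1975, 386 and 0 in aneurysms 4 to 8, and 71, 52, 2, 0 and 0 in controls 4 to 8. Aneurysms 5, 6 and 7 exceeded every control and aneurysm 8 had 0, with fold changes of 4.40 ± 1.598 (SE, adjusted p = 0.545) on gene reads and 3.44 ± 1.55 (SE, adjusted p = 0.912) on exon reads, and 14.7% of its reads were unique. Rpl10, which joins the large subunit late in its maturation, had exon reads of 219, 3698, 1342, 480 and 504 in aneurysms 4 to 8, and 486, 191, 5, 159 and 0 in controls 4 to 8. Control 4 thus exceeded aneurysms 4 and 7. All its exon reads were unique, and in aneurysm 8 it was the first member, with 16.3% of that library's member exon reads. Rpl10 had fold changes of 2.83 ± 1.05 (SE, adjusted p = 0.553) on gene reads and 2.16 ± 1.05 (SE, adjusted p = 0.999965) on exon reads.

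The row of Rpl35a, a large subunit protein, had 1 exon and lay on chromosome 1, while RefSeq places the gene on chromosome 11. Of its 4121 exon reads, 6.12% were unique and 3196 were in aneurysm 5, and 5 samples had none. Rpl35a had a fold change of 2.73 ± 1.65 (SE, adjusted p = 0.970) on gene reads. Rpl6, another large subunit protein, had exon reads of 721, 2560, 632, 0 and 182 in aneurysms 4 to 8, and 0, 0, 0, 447 and 57 in controls 4 to 8. Samples with many reads stood beside samples with none in both groups, and the exon fold change was 1.91 ± 1.200 (SE, adjusted p = 0.999965). Rps9, a small subunit protein that takes part in early assembly, stood at 157, 524, 383, 166 and 1.34 CPM of exon reads in aneurysms 4 to 8, and 37.8, 53.6, 97.1, 90.2 and 1.75 CPM in controls 4 to 8. Here 4 aneurysms exceeded every control and aneurysm 8 had 1 read, and Rps9 had a fold change of 2.13 ± 1.10 (SE, adjusted p = 0.999965) on exon reads and 2.23 ± 0.86 (SE, adjusted p = 0.603) on gene reads with a unique share of 95.7%.

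Among the lowest fold changes were those of Rpl18, Rplp2, Rpl34 and, on exon reads, Rpl17. Rpl18, a large subunit protein, had exon reads of 90, 402, 151, 93 and 0 in aneurysms 4 to 8, and 295, 17, 158, 254 and 0 in controls 4 to 8, all unique. Scaled, it stood at 10.6, 37.1, 27.2, 18.8 and 0 CPM of gene reads in aneurysms 4 to 8, and 51.3, 3.60, 45.6, 44.8 and 0 CPM in controls 4 to 8. No aneurysm exceeded the controls, and Rpl18 had a fold change of -0.63 ± 1.44 (SE, adjusted p = 0.9989) on gene reads and -1.22 ± 1.69 (SE, adjusted p = 0.999965) on exon reads. Rpl34, a large subunit protein, had exon reads of 107, 1005, 8, 432 and 0 in aneurysms 4 to 8, and 0, 0, 336, 287 and 19 in controls 4 to 8. Its controls ran from 0 to the highest scaled value of all samples, and Rpl34 had a fold change of 0.32 ± 1.51 (SE, adjusted p = 0.9989) on gene reads and -0.14 ± 1.48 (SE, adjusted p = 0.999965) on exon reads. Rpl17, which lines the peptide tunnel, had 0.60 ± 0.95 (SE, adjusted p = 0.9989) on gene reads and -0.25 ± 1.14 (SE, adjusted p = 0.999965) on exon reads. The signs of Rplp2, Rpl34 and Rpl17 turned with the scaling or with single samples left out.

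By class, 0 of 36 large subunit, 0 of 22 small subunit and 0 of 3 stalk genes tested on gene reads were called, with 35, 22 and 3 positive. Their median fold changes on gene reads were 1.41, 1.26 and 0.75, and on exon reads 0.79, 0.50 and 0.18. The 28 tested members with a unique share of 90% or more had a median of 1.29 on gene reads, and the 36 with less had 1.43. Members with exon reads in all 10 samples numbered 30, and all were positive in both fits, with medians of 1.38 and 0.80. Of the tested members with 0 exon reads in some sample, 33 of 34 were positive on gene reads, with a median of 1.34. On exon reads 25 of 33 of them were positive, with a median of 0.54. Among the core genes with a matched start site, the 19 tested with a first-base pyrimidine run had a median of 0.82 on gene reads and the 25 without had 1.29. On exon reads the medians were 0.25 for 19 genes and 0.64 for 24.

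Among themselves the members were far from equal in amount within a library. The 5 most abundant took 20.4 to 53.9% of member exon reads in aneurysms and 24.8 to 40.8% in controls. Across the 63 members tested on exon reads, the correlation of log2 CPM between 2 samples had a median of 0.35 within aneurysms, 0.33 within controls and 0.37 between the groups (10, 10 and 25 pairs). They run over genes within a pair, and genes do not serve as replicates. Of 68 members with at least 100 exon reads in some sample, 38 (55.9%) had 0 in another, beside 92.1% of all 6961 such genes. At least 10 exon reads in every sample were reached by 16 members (23.5%) and by 3.46% of all such genes. Members with 10 or more exon reads numbered 57, 68, 60, 62 and 23 in aneurysms 4 to 8 and 60, 59, 56, 62 and 43 in controls 4 to 8, and members with 0 numbered 38 in aneurysm 8 and 27 in control 8.

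On-and-off rows were frequent. Rps20, a small subunit protein, had exon reads of 0, 3299, 1534, 317 and 1 in aneurysms 4 to 8, and 0, 12, 30, 515 and 124 in controls 4 to 8. Rps25, another, had 0, 2793, 2, 428 and 0 in aneurysms 4 to 8, and 214, 0, 71, 375 and 0 in controls 4 to 8. Neither pattern followed the groups, since samples with 0 or a few reads occurred in both. Rps15a, with 1, 1819, 0, 608 and 0 in aneurysms 4 to 8, and 461, 0, 0, 542 and 0 in controls 4 to 8, did not pass the filter in either fit.

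**Figure D5:**
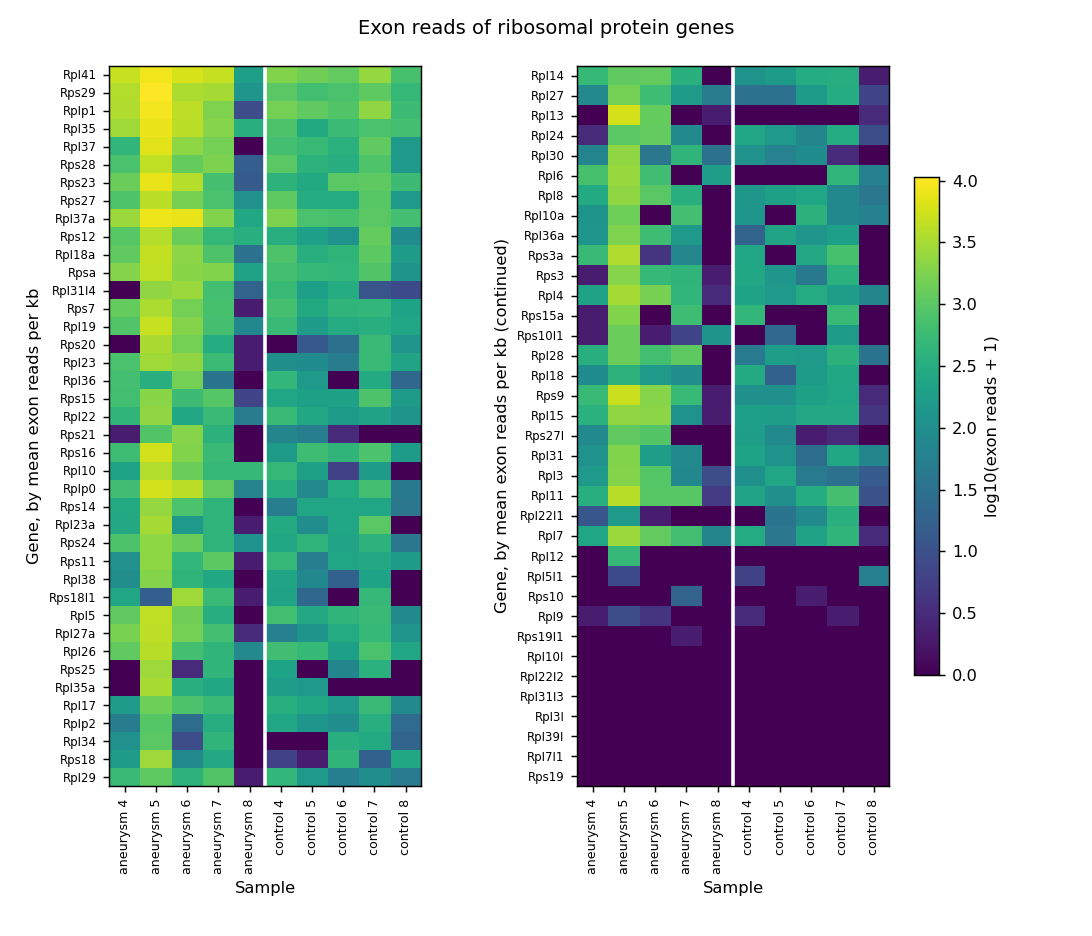
Exon reads of 76 of the 79 ribosomal protein genes in each sample as log10(reads + 1), ordered by mean exon reads per kb, with a white line between aneurysms (left) and controls (right). The column of aneurysm 5 is brightest and that of aneurysm 8 darkest, and dark cells occur beside bright ones in both groups, as for Rps20 and Rpl6.

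The filter left out 15 members on gene reads and 16 on exon reads. A total of 7 had no exon read in any sample: Rps19, Rpl10l, Rpl22l2, Rpl31l3, Rpl7l1, Rpl3l and Rpl39l. A count of 0 allows up to 3 reads a library, which is 0.635 to 1.48 CPM of exon reads before TMM scaling, for counting error only. Rps19, a small subunit protein needed for red cell formation in humans, was at 0 on its row on chromosome 9. RefSeq places the gene on chromosome 1. A second row annotated as ribosomal protein S19, NEWGENE_68440 on chromosome 1, had exon reads of 866, 4069, 1291, 1378 and 1 in aneurysms 4 to 8, and 376, 218, 259, 917 and 137 in controls 4 to 8. Rpl12 had 481 exon reads, all in aneurysm 5. Rpl9 had 15 exon reads over all samples and Rps10 had 19, and 91.8% and 96.0% of their gene reads lay in introns. The remaining like-named loci that were left out were Rps10l1 (1597 exon reads), Rpl5l1 (67) and Rps19l1 (1).

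Of the tissue paralogs, 1 passed the filter. Rps27l, a paralog of Rps27 that responds to p53 in human cells, had exon reads of 83, 1120, 907, 0 and 0 in aneurysms 4 to 8, and 182, 84, 1, 2 and 0 in controls 4 to 8. Aneurysms 7 and 8 and control 8 had 0 and aneurysms 5 and 6 the most, and Rps27l had a fold change of 2.53 ± 1.63 (SE, adjusted p = 0.9986) on gene reads, beside 0.82 ± 0.69 (SE, adjusted p = 0.9989) for its parent Rps27. Rpl22l1, a paralog of Rpl22, had exon reads of 11, 149, 1, 0 and 0 in aneurysms 4 to 8, and 0, 35, 84, 362 and 0 in controls 4 to 8. The most reads were in control 7. Its parent Rpl22 had a fold change of 0.61 ± 0.79 (SE, adjusted p = 0.9989). Rpl3l, the striated muscle paralog, was at 0 exon reads, as were Rpl7l1 and the testis paralogs Rpl10l and Rpl39l. Their parents Rpl3, a protein of the peptidyl transferase centre, and Rpl7 had fold changes of 1.495 ± 0.99 (SE, adjusted p = 0.9989) and 1.75 ± 0.90 (SE, adjusted p = 0.889).

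A further 20 rows belong to 9 ribosomal protein symbols that more than 1 locus holds and fall outside the rule. They took exon reads equal to 10.6 to 21.1% of those of the members in aneurysms and 14.7 to 27.7% in controls. Another 87 rows annotated as ribosomal proteins or their copies took 16.9 to 27.7% and 17.1 to 26.3%. Rps6, whose protein is the substrate of the S6 kinases, is split into Rps6_1 and Rps6_2 on chromosome 5. Rps6_2 had exon reads of 736, 4568, 970, 1016 and 9 in aneurysms 4 to 8, and 499, 373, 522, 575 and 64 in controls 4 to 8, and Rps6_1 had reads only in aneurysm 6 (854) and control 5 (259). The Rps6_2 fold change was 0.90 ± 0.81 (SE, adjusted p = 0.9989), and 1303 of its 9332 exon reads were unique. Rps4x_2, the X-linked small subunit gene, had exon reads of 918, 4813, 1971, 1157 and 14 in aneurysms 4 to 8, and 574, 285, 371, 270 and 60 in controls 4 to 8, none unique, and a fold change of 1.75 ± 0.79 (SE, adjusted p = 0.790). Rpl39_2 had 2.40 ± 1.23 (SE, adjusted p = 0.889). None of these rows was called.

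Other genes of the translation machinery were read from lists, and 0 of their members were called in either edgeR fit. Among TOP messages for translation factors and allied proteins, 12 of the 14 tested on gene reads were positive, with a median of 1.18. The most abundant by exon reads were Vim, an intermediate filament protein whose message is also TOP-like, at 1.77 ± 0.76 (SE, adjusted p = 0.746) and Pabpc1, the poly(A)-binding protein, at 2.34 ± 1.12 (SE, adjusted p = 0.862). Translation initiation factors had 20 of 22 positive and a median of 1.04, and those with most exon reads were Eif3a at 0.94 ± 0.64 (SE, adjusted p = 0.9989) and Eif3j at 1.14 ± 0.72 (SE, adjusted p = 0.9957), both of initiation factor 3. Ribosome biogenesis genes had 17 of 23 positive and a median of 0.79, with Ncl, nucleolin, at 1.48 ± 0.78 (SE, adjusted p = 0.889) and Dkc1, the pseudouridine synthase, at 0.79 ± 0.83 (SE, adjusted p = 0.9989). Fau, which encodes a ubiquitin-like protein joined to a small subunit protein, had 504 exon reads in all.

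Mitochondrial ribosomal proteins, which serve the separate ribosome of the mitochondrion, had 14 of 31 tested positive on gene reads and a median of -0.23, with Mrpl27 at 0.98 ± 1.42 (SE, adjusted p = 0.9989) and Mrpl45 at -0.30 ± 1.28 (SE, adjusted p = 0.9989). Proteasome subunits, another abundant complex of housekeeping proteins, had 14 of 25 positive and a median of 0.16, with Psmd1 at 0.27 ± 0.73 (SE, adjusted p = 0.9989) and Psmd11 at 0.81 ± 0.74 (SE, adjusted p = 0.9989). S6 kinases and regulators of TOP translation had 9 of 12 positive and a median of 0.70. Eif4ebp2, a translational repressor under mTOR, had 3.68 ± 1.66 (SE, adjusted p = 0.790), and Eef2k, the kinase of elongation factor 2, had 0.80 ± 0.98 (SE, adjusted p = 0.9989). On exon reads the medians were 0.56 for TOP messages, 0.23 for initiation factors, 0.76 for biogenesis, 0.47 for mitochondrial ribosomal proteins, -0.04 for S6 kinases and regulators and -0.28 for proteasome subunits, beside 0.68 for the members and -0.03 for all genes. At an unadjusted p under 0.05 in edgeR on gene reads stood 2 of 14 TOP messages and 1 of 23 biogenesis genes, all higher. So did 1 of 12 genes of the S6 kinase list and 1 of 25 proteasome subunits, both higher. Of 22 initiation factors, 1 was higher and 1 lower. Of all genes tested on gene reads, 3.3% were higher and 2.43% lower at that p, and 54.2% had a positive fold change. On exon reads there was 1 gene of these lists, a TOP message that was lower, beside 2.56% of all genes higher and 1.75% lower. These small counts are not read as particular to the lists. None of the 8 snoRNA host genes was in the table.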

How the data were processed

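Total gene reads, total exon reads, unique reads, intron reads and exon-exon reads of 5 aneurysm and 5 control samples were taken as deposited. These are raw counts, which the authors made from paired stranded mRNA libraries with CLC Genomics Workbench on the rat genome Rnor6. Which strand setting and annotation release were used is not given in the sources used here. In the submitters' processing notes DESeq and edgeR are named too. Exon lengths come from the deposited table. Gene reads equal exon plus intron reads in it. The authors' own comparison columns hold fold changes and p-values and were not used.

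Counts were filtered (filterByExpr, minimum 10), scaled by TMM and tested in edgeR 4.0.16 by the quasi-likelihood test without covariates, with Benjamini-Hochberg adjustment over all genes and a threshold of 0.05, once for gene reads and once for exon reads. Two-sided p-values are given. DESeq2 1.42.0 and limma 3.58.1 voom, other scalings and filters, unique reads, a replicate block and leaving out each sample were alternatives. Levels on the log2 scale are CPM with a prior count of 2. The fit was tested on simulated data. No 2 samples agreed within sampling noise (lowest chi-square per degree of freedom 43.2), so each counts once. Intervals and floors cover counting error only.

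Genes named are the 10 members highest per kb, the 4 highest and 4 lowest fold changes of each fit, stalk genes, Rpsa, Rps6, Rps4x, paralogs with their parents and, of other lists, called genes and the 2 with most exon reads. Other genes are named as examples, chosen after their values were seen: Rps20, Rps25, Rps15a, Rpl12, Rpl9, Rps10, Rps19 and the like-named loci. The members and lists were chosen with earlier results of these data known. A few genes that this rule selects are not reported here. Lists were described and not tested as sets. Start regions are from RefSeq, build GRCr8, and gene coordinates are those of the deposited table, Rnor6.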

Additional observations from a re-analysis of the deposited data

Results flagged for a closer look

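In groups of 5 samples, 16 of 114 sets of values had a highest or lowest sample whose gap to the nearest other exceeded 0.71 of the range (Dixon's critical value, which chance passes in about 1 of 20 sets). Most were low values in aneurysm 8, the library with the fewest genes detected, and the sets share that library. Aneurysm 8 had 23 members with at least 10 exon reads, and the next lowest aneurysm had 57. On total exon reads the aneurysm 8 levels that stood apart were Rpl41 at 7.96, Rps29 at 7.39, Rplp1 at 3.50, Rpl37 at -0.71, Rps28 at 4.37, Rpl18 at -0.71, Rpl17 at -0.71 and Rps9 at 0.96 log2 CPM. On total gene reads they were Rplp1 at 2.75, Rpl18 at -1.41 and Rpl17 at -1.41 log2 CPM. In aneurysm 7, Rpl6 had 0 reads and stood at -1.41 log2 CPM of gene reads and -0.71 of exon reads, the values given to a count of 0, with the other aneurysms at or above 6.41 and 6.92. Among controls, Rplp1 in control 7 was high at 8.66 log2 CPM of gene reads, next to 8.04, and Rps9 in control 8 was low at 1.24 log2 CPM of exon reads, next to 5.26. No explanation of these values was tested.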

How the results depend on the processing

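Over 22 alternatives, 0 members were called in either fit, except without a filter on low counts, where 2 of 75 were called on gene reads (Rpl13 and Rps21, log2 fold changes 5.17 and 4.52, adjusted p = 0.00233 and 0.0311) and 1 of 72 on exon reads (Rpl13). The median fold change stayed positive, from 0.90 to 1.61 on gene reads and from 0.32 to 1.61 on exon reads, the last with library size alone, where the median of all genes was 0.77 in place of -0.03. That median was -0.32 on gene reads with limma-voom and -0.35 with the block, in place of 0.13. The member medians ranged from 0.97 to 1.61 and 0.32 to 0.89 with 1 sample left out. Same-numbered samples did not all deviate together (correlations of -0.02 to 0.14 on gene reads and -0.05 to 0.12 on exon reads, with aneurysms 6 and 8 closest to the control of their own number on gene reads and 6, 7 and 8 on exon reads). Whether a number names 1 animal is not given in the sources used here, and the correlations do not settle it. With the replicate block the member medians were 0.90 and 0.39, with 53 of 64 and 41 of 63 positive, 0 members were called, and 17 and 5 of all genes were called. The positive share of all genes with the block is not given here. All genes called on gene reads, 12 by the test reported, numbered 117 with DESeq2, 3 with its size factors, 2 with upper-quartile scaling, 2 with library size alone, 130 without a filter, 28 with at least 10 reads in 3 samples, 24 without both samples numbered 8, and 1 to 33 with 1 sample left out. On exon reads, 16 by the test reported became 40 with DESeq2, 38 with limma-voom, 3 with upper-quartile scaling, 30 without a filter, 34 with at least 10 reads in 3 samples, and 11 to 38 with 1 left out. Without mitochondrial genome and AABR07000398.1 reads the mean member share went from 1.36 to 2.76% of gene reads in aneurysms and 0.469 to 1.40% in controls, and from 2.26 to 5.30% and 0.766 to 3.88% of exon reads, and on unique reads it stayed within 1 SD. On gene reads, members whose log2 fold change turned sign stood at Rpl18 0.20 and Rplp2 -0.999 with limma-voom, Rplp2 -0.0017 with DESeq2 size factors, Rplp2 -0.034 with upper-quartile scaling, Rplp2 -1.48 and Rpl17 -0.15 with the replicate block. On exon reads, members whose log2 fold change turned sign stood at Rpl34 1.54 with limma-voom, Rplp2 0.30, Rpl34 0.84 and Rpl17 0.81 with library size alone, Rplp1 -0.27, Rpl37 -0.32, Rps28 -0.13, Rpl34 0.38 and Rpl22 -0.018 with the replicate block, Rplp1 -0.14 and Rpl34 0.075 on unique reads. With 1 sample left out, the ranges of members that turned sign were Rplp2 on gene reads -0.74 to 0.38, Rpl34 on gene reads -0.31 to 1.39, Rplp1 on exon reads -0.040 to 0.52, Rpl34 on exon reads -0.81 to 0.75, Rpl37 on exon reads -0.034 to 0.80, Rps23 on exon reads -0.072 to 0.67, Rps27 on exon reads -0.093 to 0.38, Rpl22 on exon reads -0.18 to 0.38, Rps28 on exon reads -0.052 to 0.60 and Rpl17 on exon reads -0.53 to 0.083. The cause was not tested. On simulated counts, no 4-fold change was recovered at the dispersion estimated without the group term and 100% were at a dispersion of 0.05. The spread within the groups was not simulated, so neither value says what the reported fits could detect.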
